A study of Bos taurus with 34 samples.

Results

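ISG12(B), IFI6 and REC8 are 3 genes of the bovine liver transcriptome that were chosen by their log2 fold changes in slick against free cattle. They were found by symbol among the 14161 genes of the authors' comparison of slick with free animals. The Ensembl identifiers given there were then found in both count tables. The values of this comparison chose the 3 genes, so those values are given as a description and support nothing beyond it. They were listed as the largest falls, and this holds for ISG12(B) and REC8 but not for IFI6, whose change did not pass the authors' test.

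The series holds 34 liver samples of cattle in 2 experiments, all on alleles of PRLR, the prolactin receptor gene. In the TruSeq experiment, the sires were 2 slick bulls, Blanco and Lone Ranger, and daughters carried 1 copy of the SLICK allele (SLICK, 10 samples) or 0 copies (FREE, 8 samples). SLICK had 5 daughters of each bull. FREE had 7 daughters of Lone Ranger and 1 of Blanco, so sire and genotype are partly confounded. The SMARTer experiment had 5 samples of animals with 1 copy, labelled S1, and 11 of animals with 2 copies, labelled S2. The labels give no age or treatment. Columns of the count tables are headed by numbers found in none of the labels, and no library could be tied to a sample. The tracking of REC8 with ISG12(B) and IFI6 over libraries was planned only for columns tied to samples. It needs no group label, but no library column was read, so it is not analysed here. Levels per animal, the share of the fall carried by single animals, and S2 against S1 are not analysed because that tie is missing. Depth per sample is unknown for the same reason.

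Type I interferon binds the receptor pair IFNAR1 and IFNAR2, whose kinases JAK1 and TYK2 phosphorylate STAT2. It joins IRF9 in a complex that enters the nucleus and switches on interferon-stimulated genes. ISG12(B) and IFI6 belong to a family of small hydrophobic membrane proteins that interferon induces, and IFI6 is known for limiting cell death and viral replication. REC8 is known from another setting. It is a kleisin, the subunit that closes the cohesin ring around sister chromatids, and it takes the place of RAD21 in meiosis. REC8 has also been counted among interferon-induced genes in some cells.

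ISG12(B) had the lowest log2 fold change of all genes per the authors' deposited table, and REC8 was next. ISG12(B) (ENSBTAG00000004272) fell by 4.44 log2 units, or 21.8-fold, in SLICK against FREE per the authors' deposited table. Its F statistic there was 31.5, with p = 2.21e-05 and an adjusted p of 0.0319. An approximate standard error can be read from that table as the size of the log2 fold change divided by the square root of F, and it was 0.79 for ISG12(B). In ARS-UCD1.2 coordinates the gene lies on chromosome 21, + strand, between 58715675 and 58727005. Its gene model has 6 exon intervals with 957 bases in all. Lower in SLICK is read from negative values by the name of the table, a direction not checked on single libraries, and the labels do not say whether sire was in the authors' model.

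REC8 (ENSBTAG00000002705) fell by 4.39 log2 units, or 21.0-fold, per the authors' deposited table. The approximate standard error was 0.92, the F statistic 22.7, p = 1.40e-04 and the adjusted p 0.0486, close to the threshold of 0.05 per the authors' deposited table. REC8 lies on the - strand of chromosome 10, from 20976598 to 20982410, with 19 exon intervals and 2480 exon bases. ISG12(B) and REC8 differed from each other by 0.05 log2 units in that table, far less than either approximate standard error.

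IFI6 (ENSBTAG00000007554) had a log2 fold change of -1.28 per the authors' deposited table, a 2.43-fold lower level in SLICK. Its approximate standard error was 0.53, with F = 5.78, p = 0.0268 and an adjusted p of 0.245 per the authors' deposited table. The gene lies on the + strand of chromosome 2, from 125662055 to 125665793, with 6 exon intervals and 857 exon bases. In the 12131 genes averaging 0 log2 CPM or more (CPM, read counts scaled to library size), 68 had a lower log2 fold change than IFI6 in that table, while 0 were lower than ISG12(B) and 1 was lower than REC8. An adjusted p under 0.05 was reached by 2 of the 3 genes, against 0.501% of all genes per the authors' deposited table, a count that follows from how the genes were chosen.

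**Figure D1:**
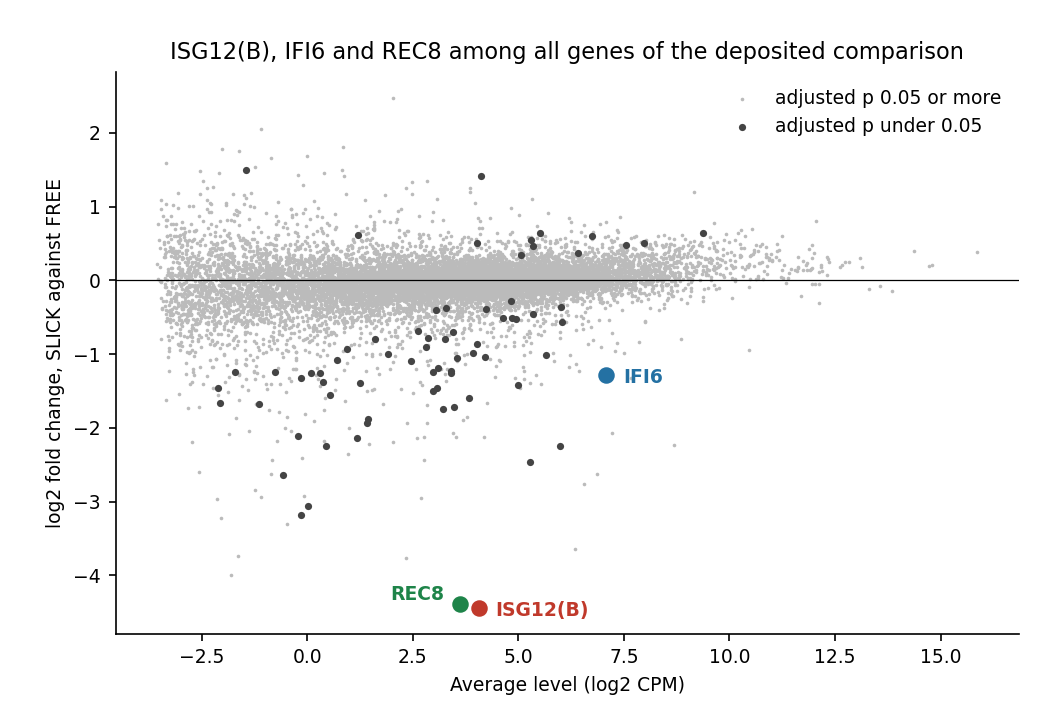
Each point is 1 gene of the authors' deposited table, with its average level in log2 CPM on the x axis and its log2 fold change of SLICK against FREE on the y axis. Dark points have an adjusted p under 0.05. ISG12(B) (-4.44) and REC8 (-4.39) are the lowest points, and IFI6 (-1.28) lies higher up.

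The 3 genes differed in abundance. Per kilobase of exon, the average level per the authors' deposited table came to 7.30 log2 CPM for IFI6, 4.13 for ISG12(B) and 2.32 for REC8. IFI6 had a higher level per kilobase than each of the 44 listed interferon-stimulated genes measured, the nearest being the ubiquitin-like ISG15 at the same rounded level of 7.30 log2 CPM. IFI27, of the same family as IFI6 and not on that list, was higher, at 8.54 log2 CPM. By this measure IFI6 was at percentile 97.1 of all genes, ISG12(B) at 79.8 and REC8 at 51.8. The averages are given over the authors' comparison as a whole, so they give no level for SLICK or FREE alone. In bulk liver, fewer cells of a type and less RNA per cell cannot be told apart.

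The error of the IFI6 change was large for its size. IFI6 had a smaller F than 39 of the 44 interferon-stimulated genes per the authors' deposited table, whose median F was 13.1. Its approximate standard error of 0.53 was exceeded by 1 of them, ISG15 (0.66), and the list median was 0.27. Of 30 genes at 0 log2 CPM or more whose log2 fold change lay within 0.1 of that of IFI6, all 30 had a larger F, and 7 had an adjusted p under 0.05 per the authors' deposited table. ISG12(B) had a larger F than 43 of the 44 interferon-stimulated genes and REC8 a larger F than 42 in that table. Both were chosen by the size of their change. Their approximate standard errors, 0.79 for ISG12(B) and 0.92 for REC8, were larger still than that of IFI6 and were exceeded by 0 of the 44.

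**Figure D2:**
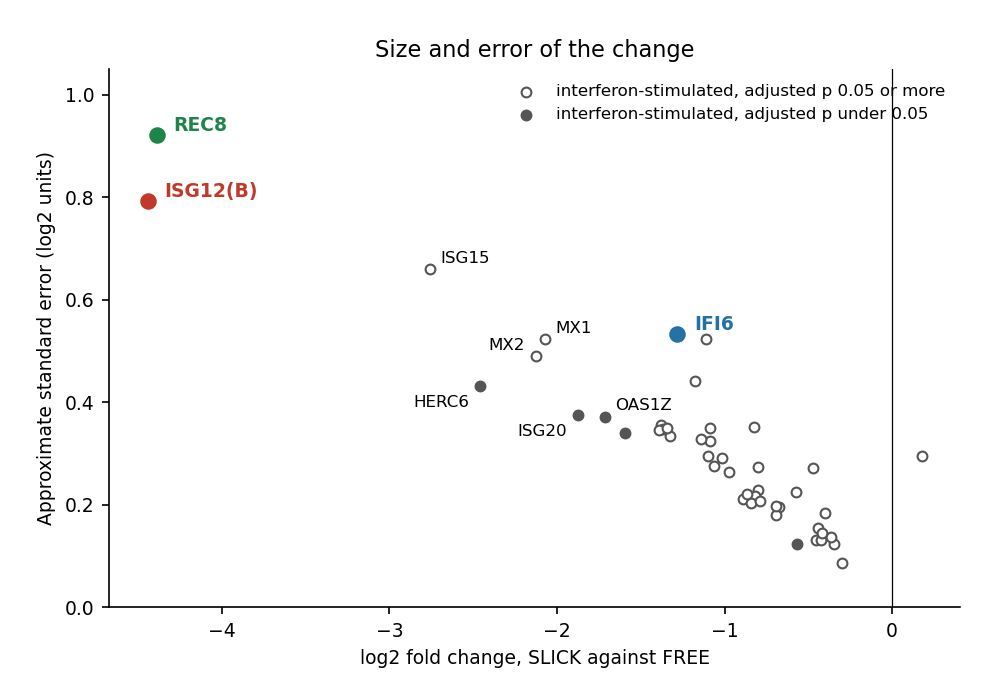
Log2 fold change of SLICK against FREE (x axis) and approximate standard error in log2 units (y axis) for 44 interferon-stimulated genes (grey, filled where the adjusted p was under 0.05) and for ISG12(B), IFI6 and REC8. IFI6 lies above the interferon-stimulated genes of like log2 fold change, with an error of 0.53.

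The genes nearest to each of the 3 in the order of log2 fold change were of mixed function. After ISG12(B) and REC8, the next lowest genes of at least 0 log2 CPM per the authors' deposited table were the acute phase gene M-SAA3.2 (-3.76) and the plasma glutathione peroxidase GPX3 (-3.64). Neither passed, with adjusted p of 0.242 and 0.116 per the authors' deposited table. ELOVL7, a fatty acid elongase, fell by 3.06 (adjusted p = 0.0411), and 1 of 2 genes named CSTB, a cathepsin inhibitor, was at -2.95 (adjusted p = 0.0511) per the authors' deposited table. The other CSTB gene was at -0.57 (adjusted p = 0.130) per the authors' deposited table. The genes next to IFI6 per the authors' deposited table included STAG3, a meiotic cohesin subunit, at -1.28, and USP18, which removes ISG15 from proteins, also at -1.28. The others were RPS6KL1 (-1.28), PARM1 (-1.27) and the sphingolipid desaturase DEGS2, which fell by 1.26, in that table. DEGS2 was the 1 gene of these 5 to pass (adjusted p = 0.0459 per the authors' deposited table).

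The ISG12 family covered a wide range, from the lowest gene of the table to one that was level. ISG12(B), IFI27 and IFI27L2 lie in this order on chromosome 21, with 8476 bases between ISG12(B) and IFI27 and 26787 between ISG12(B) and IFI27L2. IFI27 had a log2 fold change of -2.24 (approximate standard error 0.56, p = 7.77e-04, adjusted p = 0.0708) per the authors' deposited table. IFI27L2 was at -0.04 with an adjusted p of 0.929 per the authors' deposited table. Per kilobase of exon, the average level of IFI27 came to 8.54 log2 CPM, against 4.13 for ISG12(B). RefSeq gives isg12(b) as a synonym of IFI27L2 and ISG12(A) as one of IFI27, so ISG12(B) was followed here by its Ensembl identifier alone. Members of this family are alike in sequence, and how far reads shared between copies entered these values was not tested.

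REC8 lies in a gene-dense stretch beside IRF9, the DNA-binding partner of STAT2. IRF9 is on the same strand upstream, 4523 bases from REC8, and the importin IPO4 is on the opposite strand downstream, 7 bases from it. IRF9 had a log2 fold change of -0.46 (approximate standard error 0.16, adjusted p = 0.169) and IPO4 of -0.32 (adjusted p = 0.134) per the authors' deposited table. The proteasome activator genes PSME1 and PSME2, also in this stretch, were at -0.24 and -0.18 per the authors' deposited table. Of the 22 genes that start within 100 kb of REC8, 17 were measured. Their log2 fold changes ran from -0.46 to 0.27 with a median of -0.06 per the authors' deposited table. None passed an adjusted p of 0.05 there, against 0.501% of all genes. An unadjusted p under 0.05 was reached by 4 lower genes, against 8.79% of all genes, and by 3 higher genes, against 7.22%. The lowest of the 17 was IRF9. The exons of REC8, ISG12(B) and IFI6 shared 0 bases with exons of other annotated genes on either strand.

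Around ISG12(B), 6 of 7 genes starting within 100 kb were measured, and 0 passed per the authors' deposited table, against 0.501% of all genes. An unadjusted p under 0.05 with a lower level was reached by 3 of the 6 (IFI27, OTUB2 and DDX24), against 8.79% of all genes. The lowest was IFI27. The deubiquitinase OTUB2 was at -0.48 and the helicase DDX24 at -0.23, with adjusted p of 0.112 and 0.170 per the authors' deposited table. Around IFI6, 4 of 4 were measured, with log2 fold changes from -0.19 to 0.15 per the authors' deposited table. Of these, 0 passed, against 0.501% of all genes. The lowest of these 4 was FGR, a tyrosine kinase of myeloid cells, at -0.19.

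**Figure D3:**
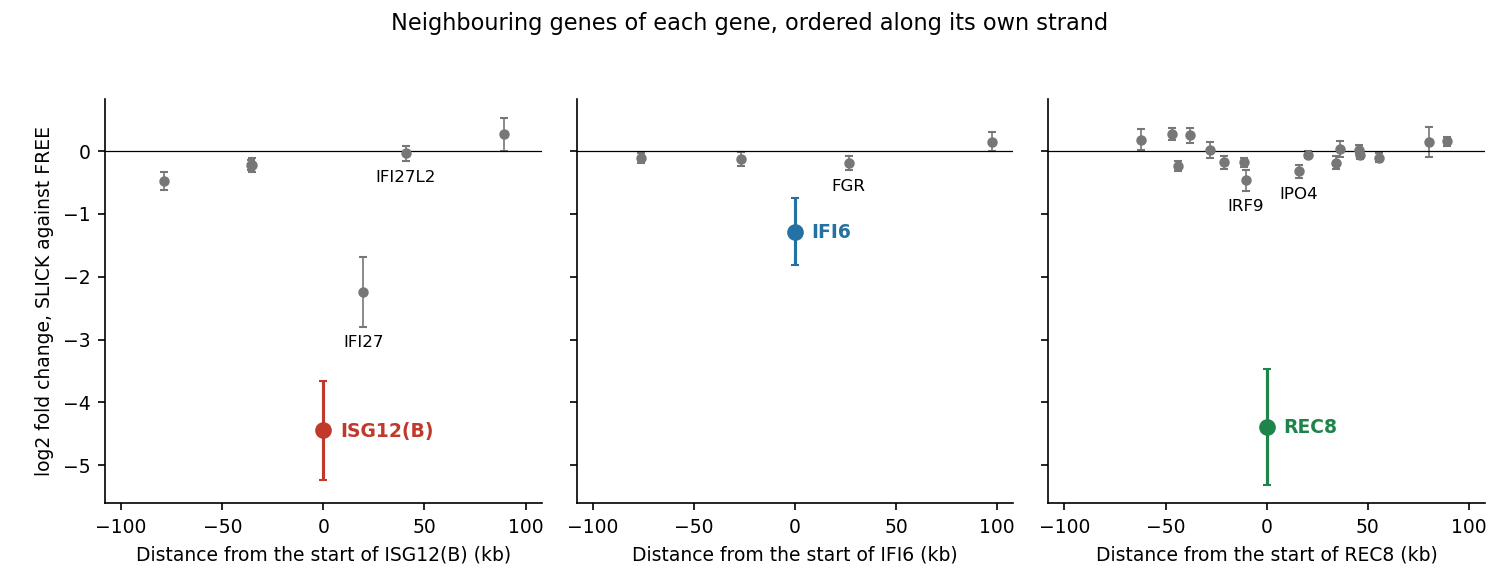
Log2 fold change of SLICK against FREE (y axis, bars are approximate standard errors) of measured genes by the distance of their start from the start of ISG12(B), IFI6 and REC8, in kb along each gene's own strand. IFI27 (-2.24) is the 1 neighbour below -1, and the genes around REC8 lie between -0.46 and 0.27.

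Upstream parts of the interferon pathway were nearly level, and the 5 transcription factor genes listed had negative values that did not pass. The 6 receptor genes had log2 fold changes from -0.07 to 0.07 and the 3 kinase genes from -0.06 to 0.04 per the authors' deposited table. Of 17 pathway genes in all, 0 passed an adjusted p of 0.05 per the authors' deposited table, against 0.501% of all genes. An unadjusted p under 0.05 with a lower level in SLICK was reached by 6 of the 17, against 8.79% of all genes. ISG15 is among these 6 and is also counted in the list of 44 interferon-stimulated genes. IRF7, which amplifies the interferon response, had a log2 fold change of -1.32 (adjusted p = 0.0761) per the authors' deposited table. STAT2 was at -0.15 with an adjusted p of 0.633 in that table. The feedback inhibitor USP18 was at -1.28 (adjusted p = 0.0945) per the authors' deposited table. A further inhibitor, SOCS1, had a negative value too (adjusted p = 0.0649) at an average of -1.97 log2 CPM per the authors' deposited table.

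Of 44 interferon-stimulated genes measured, 5 fell and 0 rose per the authors' deposited table, where 0.410% of all genes fell and 0.0918% rose. The list median was -0.88, against -0.01 over all genes, and 43 of the 44 values were negative per the authors' deposited table. An unadjusted p under 0.05 with a lower level was reached by 42 of them, against 8.79% of all genes. HERC6, an interferon-induced HECT-type protein, fell by 2.46 (adjusted p = 0.0319), the exonuclease ISG20 fell by 1.88 (0.0484) and the oligoadenylate synthetase OAS1Z fell by 1.71 (0.0486) per the authors' deposited table. The RNA-editing enzyme ADAR fell by 0.57 (0.0486) and 1 of the genes named GBP4, a guanylate-binding protein, fell by 1.59 (0.0486) per the authors' deposited table. The other GBP4 gene was at -1.11 and did not pass (adjusted p = 0.318) in that table. ISG15 was at -2.76 (adjusted p = 0.0630), and the antiviral dynamin-like GTPases MX2 and MX1 were at -2.13 and -2.07 (0.0570 and 0.0738) per the authors' deposited table. ISG12(B) and REC8, chosen as the largest falls, were lower than every gene of this list per the authors' deposited table, as follows from that choice. Of the 44, 12 were lower than IFI6. SIGLEC1, a macrophage lectin, was the 1 member with a positive value (0.18, adjusted p = 0.841) in that table.

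Most other cohesin genes were nearly level. Of the 19 others measured, 0 passed, against 0.501% of all genes, and their median log2 fold change was 0.01 per the authors' deposited table. The general kleisin RAD21 was at -0.00 with an adjusted p of 0.994, and the ring subunits SMC1A and SMC3 were at 0.04 and 0.06 per the authors' deposited table. The other genes known from meiotic cohesin had negative values and did not pass. STAG3 was at -1.28 (approximate standard error 0.46, adjusted p = 0.177), SMC1B at -0.86 (adjusted p = 0.305) and RAD21L1 at -0.45 (adjusted p = 0.289) per the authors' deposited table. These 3 had an unadjusted p under 0.05, as did WAPL, which releases cohesin from chromatin, at 0.17 per the authors' deposited table. That makes 3 of 19 lower, against 8.79% of all genes, and 1 of 19 higher, against 7.22%. Per kilobase of exon, average levels came to -4.08 log2 CPM for SMC1B, -1.88 for STAG3 and 3.40 for RAD21L1, against 2.32 for REC8.

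**Figure D4:**
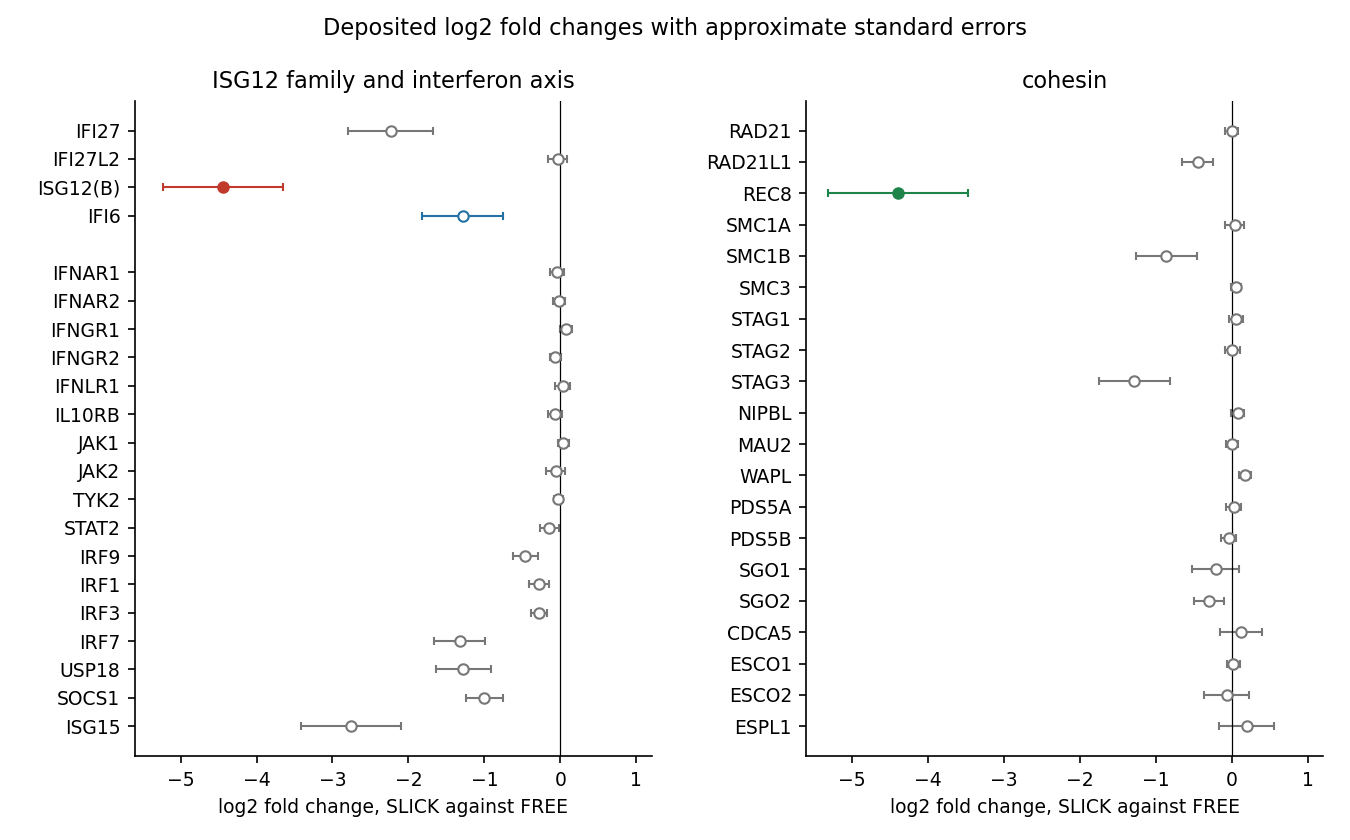
Log2 fold change of SLICK against FREE (x axis) with approximate standard errors (bars) for the ISG12 family and the interferon pathway (left) and cohesin genes (right). Filled points had an adjusted p under 0.05, which holds for ISG12(B) and REC8. The receptors and kinases lie between -0.07 and 0.07.

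Markers of cell types that could carry these transcripts were read in the same table. Hepatocyte markers averaged from 7.92 to 15.9 log2 CPM per the authors' deposited table. Of 8 hepatocyte markers, 7 had positive values, with a median of 0.26, and 0 passed, against 0.501% of all genes. An unadjusted p under 0.05 with a higher level was reached by 3 of the 8 (CPS1, TF and ALB), against 7.22% of all genes. Medians per the authors' deposited table were 0.13 over 6 Kupffer cell and macrophage markers, -0.06 over 3 plasmacytoid dendritic cell markers, 0.08 over 5 T and NK cell markers and 0.01 over 3 B cell markers. In these 4 lists 0 markers passed, against 0.501% of all genes. The macrophage marker CD68 was at -0.28 per the authors' deposited table, the 1 of 6 lower with an unadjusted p under 0.05, against 8.79% of all genes. The other 5 macrophage markers had positive values. In the plasmacytoid dendritic cell, T and NK cell and B cell lists, 0 markers had an unadjusted p under 0.05. The 4 cholangiocyte markers had a median of -0.75, with the keratins KRT7 at -1.03 (adjusted p = 0.0658) and KRT19 at -0.03 per the authors' deposited table. SOX9 was at -0.80 (adjusted p = 0.114) and EPCAM at -0.69 (adjusted p = 0.245) per the authors' deposited table. Of the 4 cholangiocyte markers 0 passed, against 0.501% of all genes. A lower level with an unadjusted p under 0.05 was reached by 3 of them, against 8.79% of all genes. The part of these cell types in the falls of ISG12(B) and REC8 was not tested. For REC8, 6 of 8 germ cell markers were measured, with a median of -0.01 per the authors' deposited table. Of these 6, 0 passed, against 0.501% of all genes. The synaptonemal complex genes SYCP1, SYCP2 and SYCP3 were at -0.01, 0.13 and -0.02, and averaged -2.66, -0.69 and 2.26 log2 CPM, per the authors' deposited table. The list also holds STAG3 and SMC1B, given above, and the recombinase gene DMC1 at 0.60 (adjusted p = 0.660) per the authors' deposited table. STAG3 and SMC1B were the 2 of 6 lower genes with an unadjusted p under 0.05, against 8.79% of all genes.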

How the data were processed

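Liver RNA of 34 samples was extracted with a column kit and made into TruSeq or SMARTer libraries, per the labels' protocols. The submitters' processing notes name the ARS-UCD1.2 build, edgeR, Subread, featureCounts and HISAT2 2.1.0, with no role or order. Exon coordinates and lengths come from the SMARTer table, made with featureCounts 1.6.2 and Ensembl release 100, per the file headers. These lengths are values of an other kind that the authors deposited for each gene model.

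The 4 tables hold 70 library columns named by animal numbers that no label holds. None was used. Of 18 animal names in the comparison, 17 are also in the TruSeq counts, so the samples behind the comparison may differ from those labelled.

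For each gene the authors deposited 2 log2 values (fold change and average CPM), a score (F), and p-values before and after adjustment. The model terms are not given in the labels. The sign was read from the name of the table. Of 14246 rows, 85 repeat a gene, and 14161 genes were kept. The planned edgeR fits of counts could not be made, and the deposited values took their place.

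The members and the 11 gene lists were chosen with earlier results of these data known. Named genes were the 3 members, their families, the interferon pathway, the 6 interferon-stimulated genes of largest change, genes starting within 100 kb and the 5 nearest in log2 fold change; ADAR, GBP4, SIGLEC1 and the cell type markers were named after their values were seen. A gene of the planned interferon pathway list is not reported here. Sequences of promoters and proteins were not used here. Benjamini-Hochberg adjustment was tested on simulated data. Tools were Python 3.11.15 with pandas 2.3.3, scipy 1.17.1, numpy 2.4.6 and matplotlib 3.10.9.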

Additional observations from a re-analysis of the deposited data

How the results depend on the processing

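With Benjamini-Hochberg adjustment over the 14161 genes in place of the deposited adjusted p, ISG12(B) and REC8 again passed (0.0313 and 0.0450) and IFI6 again did not (0.234). The same deposited p-values were adjusted again, so passing again is no separate support for these genes. The genes that fell then numbered 71 in place of 58 and those that rose 19 in place of 13. Among genes of at least 0 log2 CPM, 49 fell and 12 rose. The 5 interferon-stimulated genes that fell numbered 5 under both settings. With all genes ranked by log2 fold change, ISG12(B) and REC8 were again ranks 1 and 2, and IFI6 moved from rank 69 to rank 128. No paired analysis was possible because no library column could be tied to a sample. For the same reason the planned edgeR fits and the sire covariate were not run. Neither were DESeq2 fits, a filter on low counts or leaving out single replicates. The promoter motif was not searched. Whether 1 animal carries the falls of ISG12(B) or REC8 was not tested, and the depth behind each value is unknown.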

Other observations

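A pair of measured genes reach within 100 kb of REC8 but start farther away, and they were named after their values were seen. CARMIL3, a regulator of actin capping, starts 105 kb upstream of REC8 on the same strand and had a log2 fold change of -2.19 (approximate standard error 0.51, p = 4.47e-04, adjusted p = 0.0599) in the authors' deposited table. DHRS1, a dehydrogenase, starts 111 kb away on the other side and was at 0.37 (adjusted p = 0.154) in the authors' deposited table. CARMIL3 was lower than all 17 measured genes that start inside the window, and it did not pass.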
